A study of Mus musculus with 12 samples.

Results

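Medium spiny neurons are the principal neurons of the striatum. They are inhibitory, and their textbook division is into a direct-pathway type, which carries the dopamine receptor Drd1 and the tachykinin precursor Tac1, and an indirect-pathway type, which carries the dopamine receptor Drd2, the adenosine receptor gene Adora2a and the enkephalin precursor Penk. In both types dopamine and adenosine act through cAMP: the adenylyl cyclase Adcy5 makes it, the phosphodiesterase Pde10a breaks it down, the RGS protein Rgs9 shortens G protein signals, and Ppp1r1b encodes a phosphatase inhibitor that protein kinase A switches on. Several of these genes, among them Penk, Tac1, Drd1, Adcy5 and Pde10a, are also transcribed in cortical neurons. The 9 genes described here are these markers, chosen by name (Ppp1r1b, Drd1, Drd2, Adora2a, Penk, Tac1, Rgs9, Pde10a and Adcy5) out of 55421 genes listed in the count table. All 9 passed the filter on low counts, together with 20015 tested genes in all, and none had a count of 0 in any library.

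The 12 polyA RNA libraries came from wild-type male C57BL/6 mice, 10 to 12 weeks old, all fear conditioned (3 tones, each paired with a shock to the feet at 0.7 mA). PL saline and IL saline are prelimbic and infralimbic prefrontal cortex of mice injected with normal saline, and PL Dex and IL Dex are the same regions after dexmedetomidine (Dex), a sedative agonist of alpha2 adrenergic receptors, at 40 µg per kg; each group has 3 libraries taken 2 h after training. All groups were trained, so no untrained control enters. The extraction protocol names prelimbic tissue only, whereas 6 titles name infralimbic cortex, and the titles were followed. Nothing in the labels says that the samples of a group are separate animals; p-values then cover only the spread between these samples, which may be technical. The study compared Dex with saline after fear conditioning; the region difference is the comparison in which these markers moved.

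The PL libraries held 6867249 to 8847876 counts with saline and 6853832 to 7912150 with Dex; the IL libraries held 10603069 to 16530596 and 5419187 to 10874464. On the first principal component of all tested genes (35.8% of the variance) the IL libraries lay between −38.4 and −29.3. PL saline 1, PL Dex 1 and PL Dex 2, scoring 19.6, 22.5 and 17.9, lay nearer to IL than the other 3 PL libraries, which scored 46.9 to 48.8. Region results are therefore also given without these 3 libraries. Cortical projection neuron markers (Slc17a7, Tbr1, Neurod2, Neurod6 and Emx1) were detected in both regions, with summed levels of 1216 to 1552 CPM (counts scaled to library size) in PL and 773 to 1269 CPM in IL.

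The genes lie on 9 different loci of the GRCm38 assembly, and the coordinates in the count table equal those of the reference annotation. Ppp1r1b (ENSMUSG00000061718) spans 98348404 to 98357796 of chromosome 11, and Penk (ENSMUSG00000045573) spans 4133531 to 4138819 of chromosome 4. Exons of both overlap those of an antisense gene, 1700003D09Rik with 295 counts over the 12 libraries and A830012C17Rik with 39; reads of such partners cannot be told apart in counts made without strand. Drd1 is at 54051183 to 54055705 of chromosome 13, Drd2 at 49340627 to 49408177 of chromosome 9, and Adora2a at 75316877 to 75334784 of chromosome 10. Tac1 is at 7554879 to 7565834 of chromosome 6, and Rgs9 at 109225355 to 109298129 of chromosome 11. Pde10a is at 8525372 to 8986648 of chromosome 17 and Adcy5 at 35154877 to 35305738 of chromosome 16; genes that overlap these last 2 share no exon with them.

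Promoter windows of RefSeq (GRCm38.p6, 250 bases before to 50 after a start) were at hand for 6 of the 9 genes; Ppp1r1b, Adora2a and Penk had none in that table. Several of the genes, though not the peptide precursors, act in the cAMP cascade. The windows were therefore searched on both strands for the cAMP response element TGACGTCA, its half-site CGTCA, the GC box GGGCGG and the motif TATAAA. The full element, which contains the half-site, was in none of the 8 windows and in 1.79% of all 32851 windows. Half-sites were found in 1 member only, Tac1 (2 of them), against 20.8% of all windows. A GC box was in all 8 windows, against 35.7% of all, and TATAAA in the Rgs9 window, against 13.6%. The stretches before the annotated starts are printed for the receptor of each pathway and for Tac1, the gene that differed most from the rest across libraries; capitals mark half-sites and GC boxes. In Drd1 the GC box, and in Tac1 a half-site and the GC box, lie outside the printed stretch.
Drd1, chr13:54055706-54055908, minus strand: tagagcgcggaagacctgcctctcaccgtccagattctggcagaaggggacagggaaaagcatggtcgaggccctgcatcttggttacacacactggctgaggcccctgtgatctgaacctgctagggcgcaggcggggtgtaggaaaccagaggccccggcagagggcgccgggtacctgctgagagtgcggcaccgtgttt
Drd2, chr9:49340153-49340402, plus strand: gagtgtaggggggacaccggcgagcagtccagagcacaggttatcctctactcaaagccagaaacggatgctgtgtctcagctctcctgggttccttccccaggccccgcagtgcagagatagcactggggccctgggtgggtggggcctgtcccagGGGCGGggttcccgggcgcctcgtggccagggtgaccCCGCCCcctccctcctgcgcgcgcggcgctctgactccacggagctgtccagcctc
Tac1, chr6:7554811-7554878, plus strand: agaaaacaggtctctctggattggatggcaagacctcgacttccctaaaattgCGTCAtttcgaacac
These matches describe the letters of the windows and are not evidence of binding.

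All 9 markers were higher in IL than in PL when the region difference was averaged over both treatments. The log2 difference ran from 1.49 ± 0.12 (SE) for Adcy5 to 2.99 ± 0.58 for Drd2, with a median of 2.02 against 0.02 over all tested genes. All 9 passed the edgeR quasi-likelihood test at a Benjamini-Hochberg adjusted p of 0.05 over all genes, where 11.8% of all tested genes were called higher in IL. In 8 of the 9 the 6 IL libraries lay above all 6 PL libraries, a separation in that direction that 4.6% of all tested genes showed; Tac1 was the exception. In saline alone 8 of 9 were apart in that direction, against 20.2% of all tested genes, and in Dex alone all 9, against 10.8%. In bulk tissue fewer cells of a type and less RNA per cell cannot be told apart.

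Drd1, the direct-pathway receptor, had 63.9, 31.4 and 20.6 CPM in PL saline 1 to 3 and 35.5, 28.2 and 21.3 CPM in PL Dex 1 to 3. In IL it had 93.8, 101.8 and 78.4 CPM with saline and 93.9, 119.6 and 76.2 CPM with Dex. The regions did not overlap, and PL saline 1 stood above the other PL libraries. The region difference was 1.25 ± 0.37 in saline (adjusted p = 0.0419), 1.77 ± 0.38 in Dex (adjusted p = 0.0226) and 1.51 ± 0.26 over both (adjusted p = 0.00278).

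Tac1, which encodes the precursor of substance P, had 43.0, 11.7 and 14.5 CPM in PL saline 1 to 3 and 9.80, 10.7 and 9.76 CPM in PL Dex 1 to 3. Its IL levels were 31.4, 48.7 and 47.5 CPM with saline and 34.6, 58.4 and 49.2 CPM with Dex. PL saline 1 lay inside the IL range, at 101% of the IL saline mean, so Tac1 alone among the 9 had overlapping regions. In Dex the regions were apart, with a difference of 2.23 ± 0.47 (adjusted p = 0.0214). In saline the value was 0.91 ± 0.43 and did not pass (adjusted p = 0.177), and over both treatments it was 1.57 ± 0.32 (adjusted p = 0.00638).

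Drd2, the indirect-pathway receptor, had 15.6, 0.820 and 1.21 CPM in PL saline 1 to 3, from 103, 7 and 10 counts. PL Dex 1 to 3 had 7.89, 3.92 and 3.12 CPM. IL levels were 46.3, 46.2 and 31.4 CPM with saline and 50.8, 48.2 and 28.4 CPM with Dex. The regions were far apart, and PL saline 1 was 19.1 times PL saline 2. Its region difference was 2.92 ± 0.81 in saline (adjusted p = 0.0397), 3.07 ± 0.83 in Dex, short of the threshold (adjusted p = 0.0673), and 2.99 ± 0.58 over both (adjusted p = 0.00644).

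Adora2a, the adenosine receptor of the same neurons, followed a like order of libraries: 20.7, 1.05 and 3.38 CPM in PL saline 1 to 3 and 12.7, 1.89 and 1.76 CPM in PL Dex 1 to 3. It had 41.0, 43.7 and 33.3 CPM in IL saline and 39.4, 54.8 and 30.3 CPM in IL Dex. Libraries numbered 1 were the highest of their PL group in both treatments, and no PL library reached the lowest IL one. The differences of 2.31 ± 0.89 in saline and 2.91 ± 0.94 in Dex did not pass (adjusted p = 0.110 and 0.121), while 2.61 ± 0.65 over both did (adjusted p = 0.02).

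Penk, the enkephalin precursor, had 97.0, 13.6 and 18.6 CPM in PL saline 1 to 3 and 42.3, 16.1 and 22.6 CPM in PL Dex 1 to 3. IL levels were 187, 226 and 155 CPM with saline and 194, 263 and 147 CPM with Dex. The lowest IL library was thus above PL saline 1, the highest PL library. The region difference was 2.17 ± 0.70 in saline and 2.89 ± 0.73 in Dex, neither past the threshold (adjusted p = 0.0669 and 0.0538), and 2.53 ± 0.51 over both (adjusted p = 0.00768).

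Ppp1r1b, the phosphatase inhibitor of both neuron types, had 66.4, 26.4 and 35.6 CPM in PL saline 1 to 3 and 64.6, 33.7 and 36.9 CPM in PL Dex 1 to 3. With saline its IL levels were 187, 197 and 153 CPM, and with Dex 161, 249 and 153 CPM. The 2 PL libraries numbered 1 were level with each other and above the other 4. Its region difference was nearly the same in saline (2.08 ± 0.38, adjusted p = 0.00594) and in Dex (2.05 ± 0.38, adjusted p = 0.0114), and 2.07 ± 0.27 over both (adjusted p = 5.4e-04).

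Rgs9, the RGS protein, had 90.0, 23.8 and 25.1 CPM in PL saline 1 to 3 and 54.7, 39.8 and 23.7 CPM in PL Dex 1 to 3. Its IL levels were 192, 175 and 150 CPM with saline and 182, 191 and 143 CPM with Dex. IL libraries lay close together, while the PL libraries spanned 3.80 times from lowest to highest. Differences of 1.92 ± 0.51 in saline (adjusted p = 0.0345) and 2.12 ± 0.52 in Dex (adjusted p = 0.0466) both passed, as did 2.02 ± 0.37 over both (adjusted p = 0.00457).

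Pde10a, the phosphodiesterase, had 393, 190 and 183 CPM in PL saline 1 to 3 and 221, 213 and 136 CPM in PL Dex 1 to 3, against 690, 624 and 549 CPM in IL saline and 691, 755 and 512 CPM in IL Dex. It was higher in IL by 1.28 ± 0.31 in saline (adjusted p = 0.0215) and by 1.78 ± 0.32 in Dex (adjusted p = 0.00953), and by 1.53 ± 0.22 over both (adjusted p = 0.00101). Adcy5, the adenylyl cyclase, had 260, 150 and 171 CPM in PL saline 1 to 3 and 253, 201 and 182 CPM in PL Dex 1 to 3. Its IL levels were 579, 568 and 503 CPM with saline and 546, 669 and 550 CPM with Dex. Its region difference had the smallest SE of the 9: 1.51 ± 0.17 in saline (adjusted p = 5.9e-05) and 1.47 ± 0.17 in Dex (adjusted p = 1.2e-04), with 7.0e-07 over both.

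**Figure D1:**
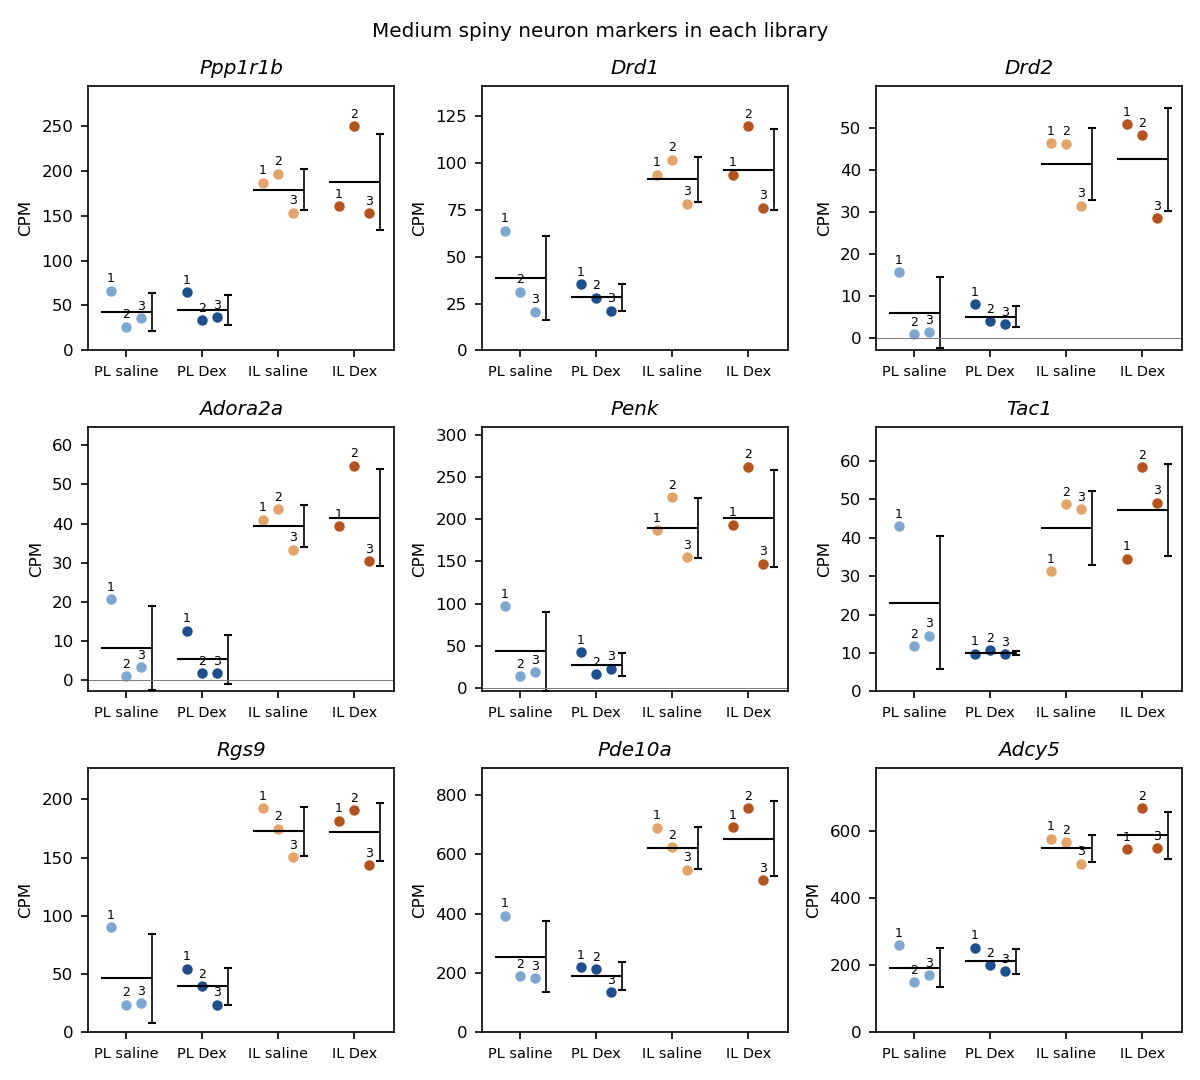
Level of each of the 9 genes in CPM (vertical axis, linear) in each library, numbered 1 to 3 within its group; lines are group means and bars SD (n = 3). PL saline 1 is the highest PL library in all 9 panels, and the regions overlap only for Tac1.

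Within single treatments 6 of the 9 passed in saline (Ppp1r1b, Drd1, Drd2, Rgs9, Pde10a and Adcy5), where 8.7% of all tested genes were called higher, and 6 in Dex (Ppp1r1b, Drd1, Tac1, Rgs9, Pde10a and Adcy5), where 3.54% were. With the batch number as a replicate block 7 passed in saline and 8 in Dex: Penk came past the threshold in saline (adjusted p = 0.0454) and in Dex (adjusted p = 0.0464), and Drd2 in Dex (adjusted p = 0.0340). Without PL saline 1, PL Dex 1 and PL Dex 2, an alternative added after seeing the data, all 9 passed in saline, in Dex and over both. This is a description only: the libraries left out were the PL libraries nearest to IL and include the 2 with the highest marker levels, so a larger difference was fixed by the choice, and PL Dex was left with 1 library. Of the genes called in all, 46.6% were higher in IL in saline, 48.2% in Dex and 48.3% over both; with no scaling factors these shares were 68.8%, 63.1% and 68.9%, and the median of all genes moved to 0.14, 0.09 and 0.12, with 6, 6 and 9 of the markers still called.

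Several of these calls changed when a library was left out, also a library of the treatment not compared. Such fits estimate the spread anew from fewer libraries, and some calls lay near the threshold with all libraries. Drd1 in saline was at an adjusted p of 0.0419 and Rgs9 in Dex at 0.0466 in the edgeR test. A lost call therefore does not single out a library. Without PL saline 1 all 9 passed in saline, with Drd2 at 5.33, Adora2a at 4.15, Penk at 3.56 and Tac1 at 1.70. In saline the calls of Ppp1r1b and Adcy5 held whichever library was left out. Leaving out PL saline 2 or 3, or IL saline 1 or 2, ended those of Drd1, Drd2, Rgs9 and Pde10a (adjusted p = 0.0602 to 0.146), and leaving out IL saline 3 or IL Dex 1 ended those of Drd1, Drd2 and Rgs9 (0.0531 to 0.0739). The Drd1 call was also lost without PL Dex 2, PL Dex 3 or IL Dex 3, the Drd2 call without PL Dex 1, IL Dex 2 or IL Dex 3, and the Rgs9 call without IL Dex 2 (0.0509 to 0.0661). In Dex the Adcy5 call held in all 12 such fits, and those of Ppp1r1b and Pde10a were lost without PL Dex 3 (0.0642 and 0.0536). The Drd1 call in Dex was lost without PL Dex 2, PL Dex 3, IL Dex 1 or IL Dex 2, that of Tac1 without any PL Dex library, IL Dex 2 or IL Dex 3, and that of Rgs9 without any library of PL Dex, IL saline or IL Dex (0.0550 to 0.140). Drd2 and Penk passed in Dex without PL saline 1 or PL saline 2, and Adora2a without PL saline 1 (adjusted p = 2.1e-05 to 0.0456). Over both treatments all 9 calls held in all 12 fits.

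**Figure D2:**
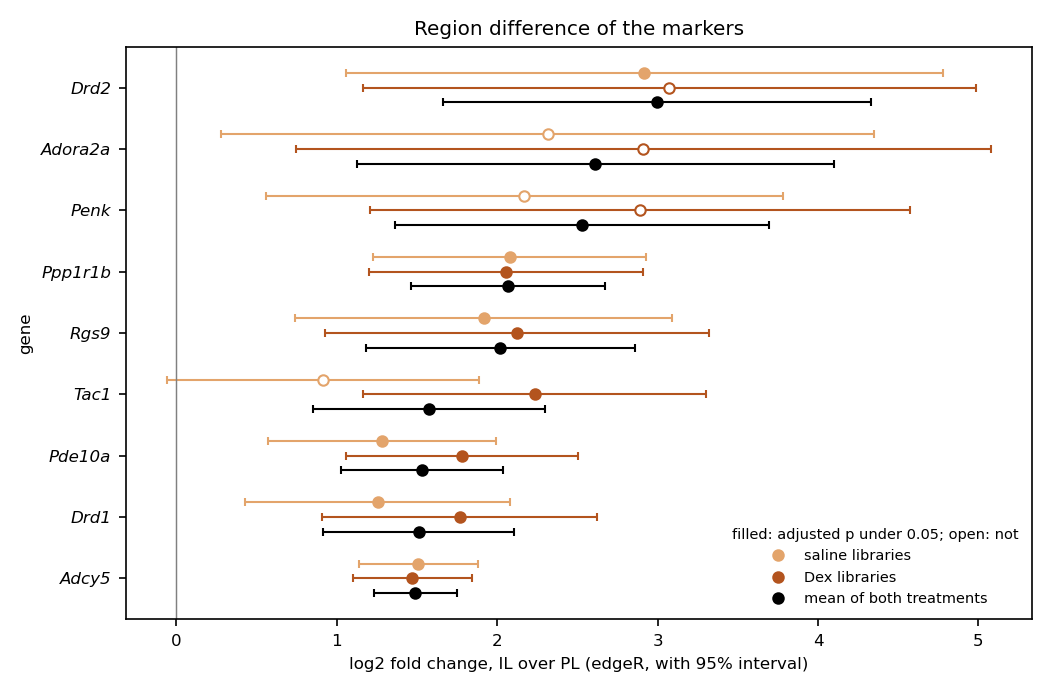
Log2 fold change of IL over PL with its 95% interval (horizontal axis) for each gene, in saline libraries, in Dex libraries and as their mean, from edgeR. Filled points passed the adjusted threshold: 6 in saline, 6 in Dex and all 9 for the mean, which lies between 1.49 and 2.99.

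Levels per kilobase of exon allow the genes to be ranked among themselves. In IL the order of mean CPM per kilobase (± SD, n = 6) was Penk (120 ± 26.6), Adcy5 (79.2 ± 7.69), Ppp1r1b (62.6 ± 12.7), Pde10a (49.6 ± 7.23), Rgs9 (26.9 ± 3.24), Drd1 (25.9 ± 4.41), Drd2 (16.4 ± 3.72), Tac1 (13.2 ± 2.97) and Adora2a (13.2 ± 2.81). Penk and Adcy5, Pde10a and Rgs9, and Drd1 and Drd2 were the neighbours separated by more than the sum of their SDs. The PL order began with Adcy5 (28.2 ± 6.23), Penk (21.4 ± 19.6), Pde10a (17.3 ± 6.90) and Ppp1r1b (15.0 ± 5.84). Drd1 (9.23 ± 4.41), Rgs9 (6.71 ± 4.09), Tac1 (4.88 ± 3.84), Adora2a (2.25 ± 2.61) and Drd2 (2.13 ± 2.20) followed, and no neighbours in PL were that far apart. Both receptors of the indirect pathway were thus the lowest of the 9 in PL.

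The median spread of the 9 genes between libraries of a group was wider in PL than in IL, and in each group it was above that of all tested genes. In PL saline the coefficient of variation ran from 30.1% for Adcy5 to 143% for Drd2, with a median of 75.0% against 15.4% over all tested genes. PL Dex had a median of 37.8% against 19.2%, from 5.51% for Tac1, which varied more in IL Dex (25.4%), to 115% for Adora2a. In IL saline the median was 13.0% against 11.3% and the range 7.41% to 22.7%, and in IL Dex it was 25.4% against 15.0% and the range 11.8% to 29.8%.

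PL saline 1 was the highest of the 6 PL libraries for 9 of 9 genes, and PL Dex 1 was second for 8 of 9. In percent of the IL saline mean, PL saline 1 had a median over the 9 genes of 52.2%, from 37.1% for Ppp1r1b to 101% for Tac1. PL Dex 1 followed with a median of 32.2%, while PL Dex 2 and 3 and PL saline 2 and 3 had medians of 23.1%, 20.6%, 14.7% and 19.9%. The level in PL saline 1 over the mean of PL saline 2 and 3 was 1.62 times for Adcy5, 2.11 for Pde10a, 2.14 for Ppp1r1b and 2.46 for Drd1. For Tac1 that ratio was 3.28, for Rgs9 3.68, for Penk 6.03, for Adora2a 9.31 and for Drd2 15.4. The 3 indirect-pathway genes had the highest ratios. In PL Dex the ratio of library 1 to the mean of libraries 2 and 3 ran from 0.956 for Tac1 to 6.94 for Adora2a, with a median of 1.72.

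**Figure D3:**
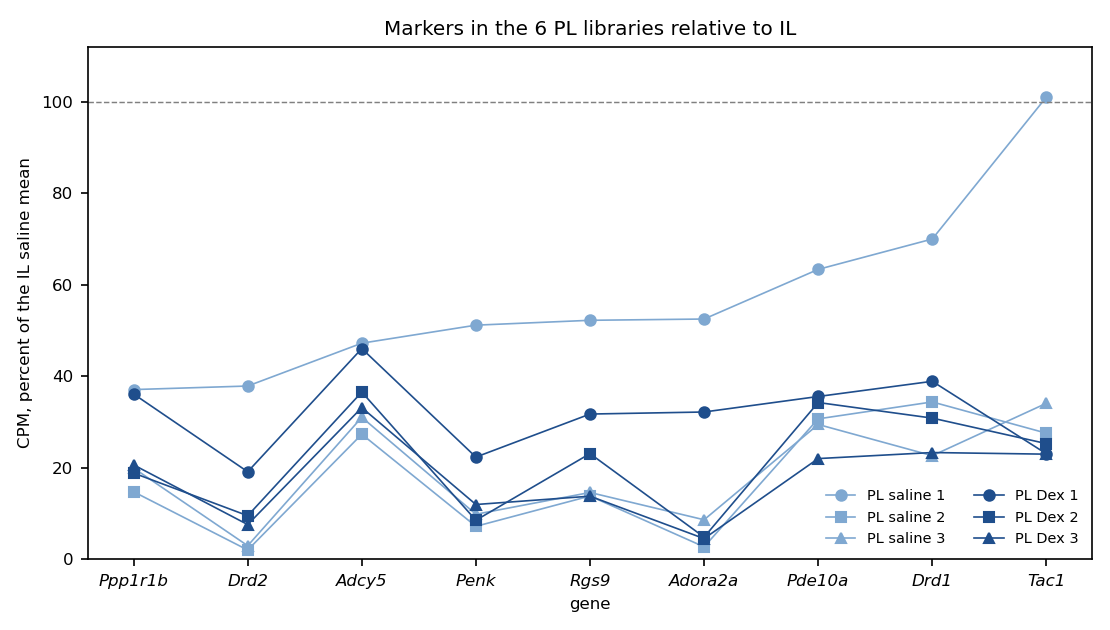
Level of each gene in each of the 6 PL libraries as a percent of the IL saline mean (vertical axis, dashed line at 100%). PL saline 1 runs from 37.1% to 101% and above every other PL library, and PL Dex 1 is second except for Tac1.

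In IL, IL Dex 2 was the highest of the 6 libraries for 7 of 9 genes and IL Dex 3 the lowest for 7 of 9. The exceptions at the top were Drd2 and Rgs9, highest in IL Dex 1 and IL saline 1. IL Dex 2 had a median of 131% of the IL saline mean and IL Dex 3 of 83.2%, so the range between these libraries of 1 group was wider than the difference between the IL group means.

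Summed levels of several other marker lists were also highest in PL saline 1. In PL saline 1 the summed level of 18 other medium spiny neuron receptor and signalling genes was 1800 CPM, against 1167 to 1407 CPM in the other PL libraries, and that of 12 medium spiny neuron transcription factors was 799.9 CPM, against 507 to 561 CPM. Striatal cholinergic interneuron markers (Chat, Slc18a3 and Slc5a7) summed to 13.4 CPM there and 1.99 to 4.63 CPM in the other PL libraries. Septal markers reached 59.2 CPM there, against 21.9 to 38.6 CPM, with 1 or 2 of the 7 at 0 in 4 of the other 5. Neuroblast markers were also highest there (211 CPM against 160 to 184 CPM). So were the lists of cortical interneurons (841 CPM against 553 to 706 CPM) and layer 6 (247 CPM against 196 to 227 CPM). Most of the interneuron sum came from Gad1 and Gad2, with means of 323 and 265 CPM over the 12 libraries. How far that sum reflects cortical interneurons was not tested. Ependyma and choroid plexus markers, at 2.88 CPM in PL saline 1, were level with the lowest of the other PL libraries (2.90 to 4.59 CPM). Cortical projection neuron markers summed to 1280.2 CPM there, within the range of the other PL libraries. The part of tissue composition in the marker levels was not tested.

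The members moved together between libraries within a group. Over the 36 pairs, Pearson's r of the deviations of log2 CPM from the group mean, across all 12 libraries, was 0.64 to 0.96 with a median of 0.88; the median r of the members with all other tested genes was −0.01. Without PL saline 1 the median over pairs was 0.69, and 32 of 36 pairs stayed positive. Adcy5 had the highest median r with the other 8 (0.93) and Tac1 the lowest (0.70). Without PL saline 1 these were 0.83 and 0.04, so the relation of Tac1 to the others rested on that library.

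Within a region the same held for levels over 6 libraries. In PL all 36 pairs had a positive r, from 0.46 to 0.97 with a median of 0.85 (median Spearman's rho 0.71). In IL 33 of 36 were positive with a median of 0.83 (median rho 0.71); the 3 negative pairs all held Tac1, with Rgs9 (−0.34), Drd2 (−0.33) and Pde10a (−0.20). The closest IL pair was Drd1 with Adora2a (r = 0.99, exact permutation p = 0.00278, adjusted p = 0.0333, rho = 0.94, adjusted p = 0.120), and r without the 2 libraries farthest from the median was 0.99. In PL it was Ppp1r1b with Adora2a (r = 0.97, exact permutation p = 0.00833, adjusted p = 0.0429, rho = 0.83, adjusted p = 0.168), and 0.76 without those 2. Of 72 relations adjusted together, 10 in PL and 9 in IL passed by r and none by rho, for which 0.05 was the smallest adjusted p. The permutations treat the 6 libraries of a region as exchangeable and ignore the treatment groups and the pairing by batch number. Over the 9 genes, r between same-numbered saline and Dex libraries was 0.69 to 0.93 in IL. In PL it was 0.69 for number 1, 0.77 for number 2 and 0.19 for number 3. The permutation p-values may therefore be too small. The 2 libraries left out, here and above, were those farthest from the median of the first gene of a pair. They therefore differ between pairs. Without them 26 of 36 pairs were positive in PL, with a median of 0.40, and 28 of 36 in IL, with a median of 0.73. Dropping the extremes of a gene narrows its range, which can lower r by itself. What the relation rested on was therefore not tested by this.

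Of 19280 genes with a mean of at least 1 CPM, the named genes whose deviations were most like those of the 9 (median r with them over 12 libraries) were Serpina9 (0.93), Sox1 (0.93), Six3 (0.93), Ccdc187 (0.91), Lrrc10b (0.91), Gng7 (0.91), Ptprv (0.91), Rasd2 (0.90), Spint1 (0.90) and Adamts3 (0.90). All 10 were called higher in IL over both treatments, by 0.95 (Adamts3) to 3.42 (Six3), where 11.8% of all tested genes were. Six3 is a transcription factor of developing indirect-pathway neurons, and Rasd2 encodes a striatum-enriched small GTPase. When PL saline 1 was left out, Rasd2 ranked first (0.91) and the others fell. Sox1 then ranked 15, Serpina9 20, Lrrc10b 21, Spint1 76 and Adamts3 95. Six3 ranked 106, Ptprv 123, Ccdc187 162 and Gng7 301 (0.66), so most of this order depended on that library.

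Other genes of medium spiny neurons and of the cAMP cascade were counted from lists, for the mean of both treatments. There 11.8% of all tested genes were called higher in IL, and 2541 of 20015 were called lower. Of 18 tested receptor and signalling genes 17 were higher in IL and none lower, with a median log2 difference of 1.70. The largest were the orphan receptor gene Gpr6 (2.99 ± 0.48, adjusted p = 9.6e-04), Syndig1l (2.97 ± 0.46, adjusted p = 0.00179), Sh3rf2 (2.84 ± 0.40, adjusted p = 3.1e-04) and Lrrc10b (2.79 ± 0.48, adjusted p = 0.00327); Chrm4, a muscarinic receptor gene, did not pass (0.39 ± 0.15, adjusted p = 0.0563). Of 12 transcription factors 9 were higher, with a median of 1.08. Six3 (3.42 ± 0.73), Isl1 (3.26 ± 0.99), Sp9 (2.14 ± 0.31) and Rarb (2.00 ± 0.19) led them, and Foxp1, Foxp2 and Ikzf1 did not pass (0.22, 0.18 and 0.14).

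The wider dopamine receptor and cAMP list did not move as 1 group. Of 13 tested genes 3 were higher, 2 lower and 8 did not pass, with a median of 0.10. Of all tested genes 11.8% were called higher, and 2541 of 20015 lower. The G protein subunits Gng7 (1.85 ± 0.24) and Gnal (0.90 ± 0.10) and the phosphodiesterase Pde1b (1.49 ± 0.12) were higher; these 3 are also in the list of 18. The receptor Drd5 (−1.003 ± 0.245) and the kinase subunit Prkacb (−0.45 ± 0.08) were lower, and Drd3 had 2.55 ± 0.90 (adjusted p = 0.0606).

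Markers of other cell types differed between the regions too. Over both treatments 11.8% of all tested genes were called higher in IL, and 2541 of 20015 were called lower. Cortical projection neuron markers were lower in IL for 4 of 5, with Neurod6 (−1.89 ± 0.12) and Tbr1 (−0.85 ± 0.12) leading, and layer 6 markers for 4 of 6. Higher in IL were all 3 cholinergic, 6 of 7 septal and 9 of 9 neuroblast markers and 4 of 5 tested ependyma and choroid plexus markers. Among these, Chat was higher by 2.33 ± 0.44, Zic1 by 2.36 ± 0.30 and the neuroblast gene Igfbpl1 by 3.25 ± 0.36, while the ependymal Tmem212 was at 0 in PL saline and at 2.34 ± 0.387 CPM (SD, n = 3) in IL saline. Summed over each list, cholinergic markers were at 1.99 to 13.4 CPM in PL and 11.1 to 20.1 CPM in IL, septal markers at 21.9 to 59.2 and 105 to 198 CPM, and neuroblast markers at 160 to 211 and 290 to 415 CPM. Ependyma and choroid plexus markers were at 2.88 to 4.59 and 8.12 to 19.1 CPM. Of the cortical interneuron markers 3 of 9 were higher (Gad1, Gad2 and Adarb2) and 3 lower (Vip, Npy and Lamp5). None of 6 oligodendrocyte and 4 microglia markers passed, and of 5 astrocyte markers only Gfap did (0.70 ± 0.11). How far these cell types account for the levels of the 9 genes was not tested.

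Dexmedetomidine was not followed by a called change of any of the 9 genes in either region. In PL edgeR called 4 of 20015 genes (0.02%), all lower, and 2784 genes (13.9%) had an unadjusted p under 0.05; DESeq2 called 123 genes, none of them a member, and gave Drd2 no adjusted p. In IL edgeR and DESeq2 called none, and 213 genes (1.06%) had an unadjusted p under 0.05. For the difference of the drug effects between the regions both called none, and 1347 genes (6.73%) had such a p.

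In PL the values of Dex over saline ran from −1.16 to 0.14 on the log2 scale, with a median of −0.43 against −0.00246 over all tested genes. Tac1 had the lowest, −1.16 ± 0.49 (unadjusted p = 0.0398, adjusted p = 0.335), and was the 1 gene of the 9 whose PL groups did not overlap, where 6.82% of all tested genes were lower in every PL Dex library; the highest PL Dex library had 10.7 CPM and the lowest PL saline library 11.7 CPM. Penk had −0.64 ± 0.74 and Adora2a −0.53 ± 1.05. Drd1 had −0.43 ± 0.39 and Pde10a −0.43 ± 0.31, while Rgs9, Drd2, Ppp1r1b and Adcy5 lay between −0.21 and 0.14. The 95% intervals were wide where PL saline 1 stood apart, from −2.37 to 2.11 for Drd2 against −0.23 to 0.50 for Adcy5.

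Leaving out PL saline 1 turned the sign. Without it 8 of 9 genes had a positive value, none called, and the median was 0.55. Drd2 then had 2.29 (adjusted p = 0.348), Adora2a 1.31, Penk 0.76 and Rgs9 0.69, and Tac1 kept its sign at −0.37. Over all genes, edgeR called 2 in PL without PL saline 1, 8 without PL saline 3, 1484 without PL Dex 3 and 0 without any other 1 library, none of them a member; without PL Dex 3 it called 144 for the difference between the regions, again no member.

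**Figure D4:**
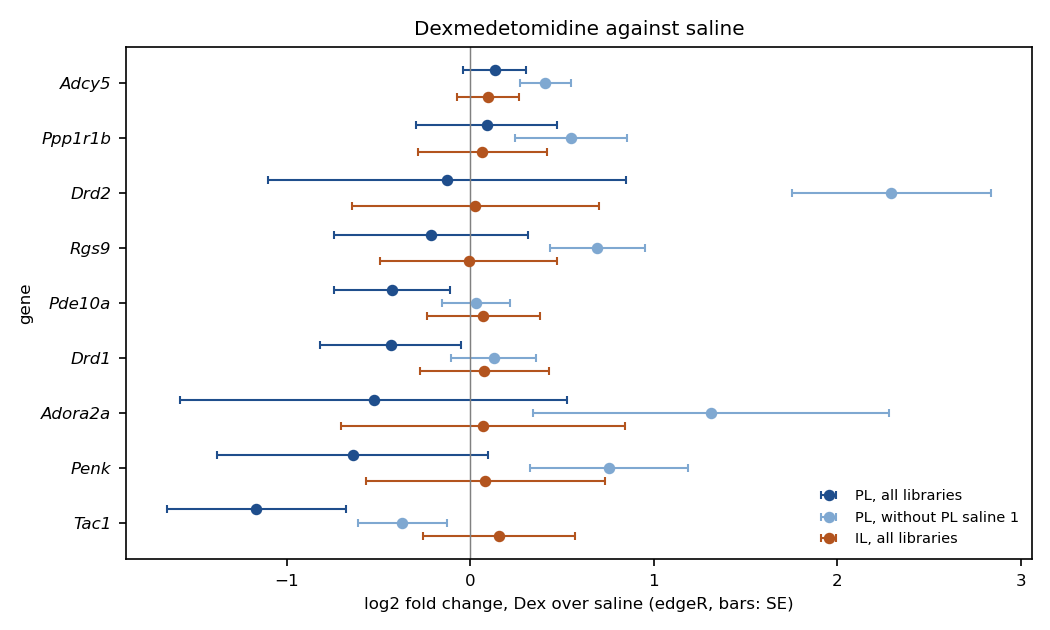
Log2 fold change of Dex over saline with its SE (horizontal axis) for each gene in PL with all libraries, in PL without PL saline 1, and in IL. In PL the values lie between −1.16 and 0.14 with all libraries and between −0.37 and 2.29 without PL saline 1; in IL they lie between −0.01 and 0.16.

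In IL all 9 values lay between −0.01 (Rgs9) and 0.16 (Tac1), with a median of 0.07 and overlapping groups for every gene. The intervals still allowed a change in either direction: −0.26 to 0.46 for Adcy5, the narrowest, and −1.70 to 1.84 for Adora2a, the widest. They use a spread per gene estimated over all 12 libraries, so their width in IL also carries the spread in PL. For Adora2a the coefficient of variation was 128% in PL saline and 115% in PL Dex. In IL it was 13.6% with saline and 29.8% with Dex. The difference of the drug effects, IL minus PL, had a median of 0.50 over the 9. It was largest for Tac1, 1.32 ± 0.64 (unadjusted p = 0.0679, adjusted p = 0.716), and without PL saline 1 the median over the 9 was −0.48.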

How the data were processed

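Whole-number counts per gene were deposited by the authors with no normalization. Per the file headers they were made with featureCounts 2.0.1 on exons of a GRCm38 annotation of release 98, paired-end, without strand; the submitters' processing notes name bcl2fastq, Trim Galore, HISAT2, SAMtools 1.8 and the build mm39. The 12 columns of the table that matched no sample were not used. The deposited table also gives a length per gene, used for levels per kilobase.

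Genes were kept by filterByExpr over the 4 groups (20015), scaled by TMM (factors 0.935 to 1.05) and fitted in edgeR 4.0.16 (R 4.3.3) by robust quasi-likelihood with 1 mean per group over all 12 libraries (8 residual degrees of freedom, common biological coefficient of variation 0.143). P-values are two-sided, adjusted by Benjamini-Hochberg over all genes, threshold 0.05. SE is the absolute log2 fold change over the square root of F. Levels are CPM on TMM-scaled sizes; correlations use log2 CPM with a prior count of 2, and those within a region carry an exact permutation p whose smallest value is 0.00139. The procedure was also run on simulated counts in which every gene had the same biological spread and no library stood apart. That run does not bear on genes with a deviant library, such as these in PL saline. Libraries of a group differed by more than counting noise (chi-square over degrees of freedom 3.86 to 14.5), so none was counted as a duplicate. Counts bound the precision: the 9 genes had 7 to 9224 reads a library.

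The labels' batch number equals the sample number and so pairs the libraries. For same-numbered Dex and saline libraries, deviations from group means over all tested genes correlated at 0.28 to 0.34 in IL. The range in PL was 0.01 to 0.11. Those of same-numbered PL and IL libraries correlated at 0.03 to 0.19 in saline and −0.09 to 0.04 in Dex. Alternatives were other scaling, no filter, DESeq2 1.42.0, only the compared groups, a replicate block, a correction for GC content (lowess, span 0.3), both together, and leaving out each library. Named genes were all 9 members, up to 4 called genes with the largest change in each other list and those at 0 counts, and the 10 named genes most like the members; other list genes named were chosen after their values were seen. One gene of the cortical projection neuron list is not reported here, and the list was counted and summed without it. The members and lists were chosen with earlier results of these data known.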

Additional observations from a re-analysis of the deposited data

How the results depend on the processing

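Over both treatments the 9 region calls held under every edgeR alternative tried; DESeq2 called 8, giving Drd2 no adjusted p in any comparison. In saline 6 markers passed, against 3 with no low-count filter, 2 with only the compared groups and 2 to 9 on leaving out 1 library; in Dex 6 passed, against 1 to 9. Genes called were 3737 in saline (1842 to 4649 on leaving out 1 library) and 1469 in Dex (783 to 1728 so, 2385 with replicate block and GC correction, 2401 without the 3 PL libraries nearest to IL, which left PL Dex with 1 library whose spread was assumed like the others'). With only the compared groups Drd1, Drd2, Rgs9 and Pde10a missed the threshold in saline (adjusted p = 0.0774 to 0.125), without the filter Drd1, Drd2 and Rgs9, and with GC correction Drd2 (0.0651), while DESeq2 called Penk (0.0171). In Dex Rgs9 missed it without the filter (0.0706) and Tac1 with replicate block and GC correction (0.0538), while DESeq2 called Adora2a and Penk, the compared groups alone Drd2 and Penk, and GC correction Penk. The replicate block changed the calls of Penk and Drd2 given above and no other member's; with it 4180 genes were called in saline, 1728 in Dex, 5293 over both and 3 for Dex in PL.

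For Dex in PL 4 genes were called, against 0 with size factors of the DESeq2 kind, no scaling or only the compared groups, 193 with no filter, 123 by DESeq2, 1 with GC correction, 2 with replicate block and GC correction and 0 to 1484 on leaving out 1 library. With no filter 3 genes were called for Dex in IL and 4 for the interaction, which gave 0 to 144 on leaving out 1 library. Signs of uncalled drug effects turned; the cause was not tested. With GC correction, alone and with the replicate block, the PL value was −0.20 and −0.18 for Ppp1r1b and −0.14 and −0.12 for Adcy5, and the interaction 0.28 and 0.26 and 0.25 and 0.23; Rgs9 in IL was 0.00113 with DESeq2 and 0.00226 with block and GC correction. On leaving out 1 library the PL values ran from −0.26 to 0.55 for Ppp1r1b, −0.73 to 0.13 for Drd1, −0.69 to 2.29 for Drd2, −2.10 to 1.31 for Adora2a, −1.12 to 0.76 for Penk, −0.53 to 0.69 for Rgs9, −0.61 to 0.031 for Pde10a and −0.019 to 0.41 for Adcy5. In IL they ran from −0.19 to 0.20 for Ppp1r1b, −0.11 to 0.23 for Drd1, −0.14 to 0.26 for Drd2, −0.18 to 0.26 for Adora2a, −0.16 to 0.27 for Penk, −0.018 to 0.33 for Tac1, −0.10 to 0.11 for Rgs9, −0.048 to 0.22 for Pde10a and −0.0066 to 0.15 for Adcy5. The interaction ran from −0.48 to 0.33 for Ppp1r1b, −0.051 to 0.81 for Drd1, −2.26 to 0.71 for Drd2, −1.24 to 2.17 for Adora2a, −0.67 to 1.1996 for Penk, −0.70 to 0.53 for Rgs9 and −0.31 to 0.12 for Adcy5. The interaction needs all groups, so no fit with only some was run. Depth limits Drd2 and Adora2a most, with 7 to 28 counts in PL saline 2 and 3.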
